A study of Mus musculus with 7 samples.

Results

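The data described here are the levels of 37 genes for glutamate receptors and for the scaffold proteins that hold them at the synapse, read in single nuclei of mouse striatum. The genes were chosen by symbol, and all 37 were found among the 27998 genes of the deposited tables. They comprise 4 AMPA receptor subunits (Gria1 to Gria4), 5 kainate receptor subunits (Grik1 to Grik5), 7 NMDA receptor subunits (Grin1, Grin2a to Grin2d, Grin3a and Grin3b), the delta receptor Grid1, 6 metabotropic receptors (Grm2, Grm3, Grm4, Grm5, Grm7 and Grm8) and 14 scaffold genes (Shank1 to Shank3, Dlg1 to Dlg4, Dlgap1 to Dlgap4 and Homer1 to Homer3). The study compared 3 wild-type (WT) mice with 4 HttQ175/+ mice, which carry a long CAG repeat knocked into 1 copy of the mouse's own huntingtin gene as a model of Huntington's disease. All 7 mice were males of strain C57BL6/J. The WT mice and HttQ175/+ replicates 2 to 4 were 14 months old, and HttQ175/+ replicate 1 was 15 months old. The knock-in allele is carried by every cell of the animal, so each cell type was exposed to it, and changes within a nucleus and changes received from other cells cannot be told apart. Replicate numbers name mice in deposit order and pair no WT mouse with an HttQ175/+ mouse.

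Glutamate released by cortical and thalamic axons is the main excitatory input of the striatum. It opens ion channels of the AMPA, kainate and NMDA families and acts on metabotropic receptors, which are G protein-coupled receptors that tune excitability and plasticity. Under the membrane, proteins of the Dlg family (PSD-95 and its relatives) bind the channels, Dlgap proteins link Dlg to Shank proteins, and Homer proteins join Shank to the group I metabotropic receptors such as mGluR5. Most striatal neurons are spiny projection neurons (SPNs). The direct-pathway type (dSPNs) carries the D1 dopamine receptor and the indirect-pathway type (iSPNs) the D2 receptor.

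The deposited annotation gave 4524 nuclei in 12 types. The tested types held 119 to 509 dSPN nuclei per mouse, 78 to 264 iSPN nuclei, 26 to 71 astrocyte nuclei, 32 to 109 oligodendrocyte nuclei and 18 to 68 Sst interneuron nuclei. In each of these types every marker listed for it was detected. A nucleus held 1128 to 5632 unique molecular identifiers (UMIs, each marking 1 captured RNA molecule). The median per mouse was 2498 to 2599 UMIs in WT and 1657 to 2384.5 in HttQ175/+, without overlap, so that depth differed with genotype. Of the 21 pairs of libraries, 3 barcodes in all were shared. The summed level of 5 general SPN markers in dSPNs was 8223 to 8936 counts-per-million (CPM) in WT and 3857 to 4293 CPM in HttQ175/+, and in iSPNs it was 9323 to 9540 and 4295 to 5158 CPM. The members' changes in SPNs therefore stand beside a large change in SPN marker RNA, and the part of that change in the results below was not tested. CPM values below are means over the nuclei of a mouse without further scaling. The log2 changes (HttQ175/+ over WT, ± SE) were fitted after scaling between mice, which moves the median of all genes in dSPNs from 0.14 to 0.03 and in iSPNs from 0.10 to 0.00. "Rose" and "fell" mean an adjusted p under 0.05 in limma's moderated test over all genes of that type.

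Promoter sequences of 3 members are shown. Grik2 and Grm3 were taken because they fell in dSPNs. Grik3, a sister kainate subunit of Grik2, was taken because the 2 differed in their distribution between the SPN types. Grik3 did not pass in iSPNs and was not tested in dSPNs. Shank1 and Grm5, the other members that passed in SPNs, had no entry among the RefSeq windows used. Each is the 250 bases before the RefSeq start of transcription on build GRCm38.p6, written 5′ to 3′ on the gene's strand, with every GC box (GGGCGG or its reverse complement) in capitals.
Grik2, chr10:49788755-49789004, minus strand: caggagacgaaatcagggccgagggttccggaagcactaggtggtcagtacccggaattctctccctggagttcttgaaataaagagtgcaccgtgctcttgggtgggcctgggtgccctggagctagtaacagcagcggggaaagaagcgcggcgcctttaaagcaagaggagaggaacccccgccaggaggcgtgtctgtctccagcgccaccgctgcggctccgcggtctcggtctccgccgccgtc
Grm3, chr5:9725353-9725602, minus strand: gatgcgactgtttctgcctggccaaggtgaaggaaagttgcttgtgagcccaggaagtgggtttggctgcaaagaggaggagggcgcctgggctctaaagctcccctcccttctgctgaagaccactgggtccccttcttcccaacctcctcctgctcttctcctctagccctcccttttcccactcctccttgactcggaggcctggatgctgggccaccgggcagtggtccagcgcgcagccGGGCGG
Grik3, chr4:125490446-125490695, plus strand: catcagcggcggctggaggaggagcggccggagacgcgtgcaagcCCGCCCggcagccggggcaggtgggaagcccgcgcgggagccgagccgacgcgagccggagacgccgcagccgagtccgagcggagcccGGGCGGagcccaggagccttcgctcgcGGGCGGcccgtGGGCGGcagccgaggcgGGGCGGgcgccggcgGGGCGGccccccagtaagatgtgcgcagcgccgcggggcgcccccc
The Grik2 window held 20 CpG dinucleotides and 0 GC boxes, the Grm3 window 8 CpG and 1 GC box, and the Grik3 window 42 CpG and 6 GC boxes. The median window of the 32851 in the RefSeq table held 6 CpG, and 32.7% of the windows held a GC box. None of the 3 held a CRE half-site (TGACG), an E-box (CACGTG) or a TATA box (TATAAA) on either strand, which 17.8%, 6.02% and 12.4% of all windows held. Of the 37 members 25 had an entry, with 39 windows in all, of which 17 held a GC box. Counted by gene, 15 of the 25 had a GC box in at least 1 window, a measure for which no share over all genes is given. A match is a description of letters, not a site in use.

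In dSPNs 4 of the 27 members tested passed the test: Shank1 rose, and Grik2, Grm5 and Grm3 fell. Over all 8796 genes tested in dSPNs, 1.47% rose and 2.47% fell, 3.93% in either direction. Of the 27 members, 3 were higher and 6 were lower in every HttQ175/+ mouse than in every WT mouse after scaling, where 8.13% of all genes were higher and 8.05% lower, 16.2% in all. The median change was -0.10 over the members and 0.03 over all genes, and 10 members had an unadjusted p under 0.05 (17.7% of all genes). The other 10 members (Grik1, Grik3, Grik4, Grin2c, Grin2d, Grin3a, Grin3b, Grm2, Homer2 and Homer3) had too few UMIs in dSPNs to be tested. In iSPNs 26 members were tested, of which Shank1 rose and none fell, where 0.525% of 5908 genes rose and 1.76% fell (2.29% in all). There, 2 members were higher and 6 lower in every HttQ175/+ mouse (5.77% and 8.01% of all genes, 13.8% together), and 11 members had an unadjusted p under 0.05 (15.1% of all genes). The median change was -0.18 over the members and 0.00 over all genes in iSPNs. Too few UMIs for a test in iSPNs were found for the remaining 11 members (Grik1, Grik4, Grin2c, Grin2d, Grin3a, Grin3b, Grm2, Grm3, Grm8, Homer2 and Homer3).

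**Figure D1:**
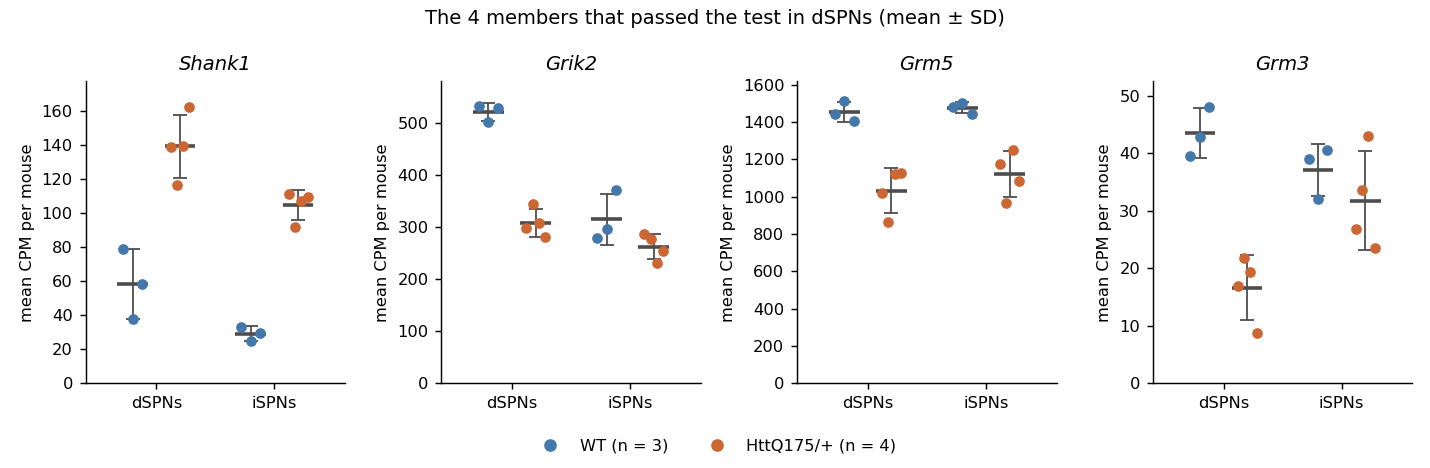
Mean CPM per mouse (vertical axes, linear and starting at 0) of Shank1, Grik2, Grm5 and Grm3 in dSPNs and iSPNs. Each point is a mouse, blue for WT (n = 3) and orange for HttQ175/+ (n = 4), and bars give the mean and SD. In dSPNs the groups do not overlap for any of the 4 genes. In iSPNs they overlap on this unscaled axis for Grik2, whose groups parted after scaling between mice, and for Grm3, which was not tested there.

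AMPA receptors carry the fast excitatory current. None of the 4 subunits passed in either SPN type. The summed AMPA level in dSPNs was 5575 ± 599 CPM (SD, n = 3) in WT and 5616 ± 212 CPM (SD, n = 4) in HttQ175/+. In iSPNs it was 5708 ± 536 and 5802 ± 486 CPM. Gria2, the subunit that makes the channel impermeable to calcium, was read at 3857, 4672 and 4084 CPM in the WT mice and 4200, 4183, 4024 and 3830 CPM in the HttQ175/+ mice in dSPNs. The 2 groups overlapped, and the change was -0.16 ± 0.10 (adjusted p = 0.463, limma). Gria1, whose trafficking underlies many forms of plasticity, changed by 0.19 ± 0.15 in dSPNs (adjusted p = 0.578) and by 0.43 ± 0.20 in iSPNs (adjusted p = 0.322, limma). Gria4 was higher in all HttQ175/+ mice than in any WT mouse in iSPNs, at 183.6 to 213.0 CPM against 77.8 to 159.5 CPM, with a change of 0.64 ± 0.24 that did not pass (adjusted p = 0.204, limma). The Gria1 level per unit of Gria2 in iSPNs was 0.083 to 0.139 in WT and 0.129 to 0.181 in HttQ175/+, so the groups overlapped. The sign of Gria3's small change in dSPNs (-0.09) turned to 0.02 without scaling between mice.

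Kainate receptors act both after and before the synapse, and Grik2 (GluK2) and Grik5 (GluK5) can form a receptor together. Grik2 lies on chromosome 10 from 49094833 to 49788766 on the minus strand (mm10, GENCODE vM21). Its level in dSPNs was 533.2, 502.6 and 529.0 CPM in the WT mice and 298.1, 345.6, 307.8 and 280.9 CPM in the HttQ175/+ mice. Every HttQ175/+ mouse lay well under every WT mouse, and the spread within each group was small beside the gap. The change was -0.87 ± 0.14 (adjusted p = 0.0027, limma), from 782 UMIs in WT and 876 in HttQ175/+. At 1000 UMIs per nucleus, 37.3% ± 5.2 of WT dSPNs and 25.4% ± 2.0 of HttQ175/+ dSPNs had a Grik2 UMI, while oligodendrocytes stood at 14.6% ± 8.3 and 12.7% ± 4.0. Without thinning the shares in dSPNs were 58.3% and 45.5%.

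In iSPNs, Grik2 started lower. It was read there at 278.8, 296.9 and 371.2 CPM in WT and at 286.4, 278.1, 232.3 and 254.9 CPM in HttQ175/+. These ranges met on the CPM scale and parted after scaling, with all HttQ175/+ mice lower. The change was -0.36 ± 0.19 and did not pass (adjusted p = 0.402, limma). The change in iSPNs less that in dSPNs was 0.51 ± 0.22, tested within mice, and did not pass after adjustment over 5903 genes (adjusted p = 0.815, limma), so a difference between the SPN types was not shown. Levels in HttQ175/+ dSPNs (280.9 to 345.6 CPM) overlapped with those of WT iSPNs.

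Grik3 (GluK3) was an iSPN gene among the SPNs, at 154.7, 186.2 and 163.8 CPM in WT iSPNs and 11.1, 31.7 and 11.1 CPM in WT dSPNs. In HttQ175/+ iSPNs it was read at 114.0, 97.9, 102.1 and 150.6 CPM, all below the WT mice. Its change of -0.62 ± 0.21 did not pass (adjusted p = 0.161, limma). Grik5 changed by -0.37 ± 0.17 in dSPNs (adjusted p = 0.28) and by -0.15 ± 0.23 in iSPNs (adjusted p = 0.831, limma). Summed over the kainate subunits, WT dSPNs held 785 to 896 CPM and HttQ175/+ dSPNs 540 to 622 CPM, and most of that difference was Grik2. Grik4 was tested in neither SPN type.

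NMDA receptors need glutamate and depolarisation together and let calcium in. They combine Grin1 (GluN1) with GluN2 subunits, of which Grin2a and Grin2b are the main forebrain forms. No NMDA subunit passed in SPNs. The nearest was Grin2b, at 1832, 1708 and 1673 CPM in WT dSPNs and 1437, 1055, 1555 and 1303 CPM in HttQ175/+ dSPNs. All HttQ175/+ mice lay below all WT mice, and the change of -0.50 ± 0.14 just missed the threshold (adjusted p = 0.0575, limma). In iSPNs the change was -0.47 ± 0.16 (adjusted p = 0.172, limma), again with no overlap, at 1555 to 1708 CPM in WT and 942 to 1538 CPM in HttQ175/+. Without HttQ175/+ replicate 3, the mutant mouse nearest to WT, Grin2b passed in dSPNs, with a change of -0.57 (adjusted p = 0.0487, limma). It passed under no other alternative processing.

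Grin2a did not move down with Grin2b. Its change was -0.01 ± 0.15 in dSPNs, where the sign turned without scaling, and 0.33 ± 0.19 in iSPNs (adjusted p = 0.992 and 0.448, limma). The level of Grin2b per unit of Grin2a, which scaling between mice cannot alter, was 4.56 ± 0.45 in WT dSPNs and 3.25 ± 0.59 in HttQ175/+ dSPNs. In iSPNs it was 5.48 ± 0.95 and 3.20 ± 0.92. The ranges met in dSPNs (4.07 to 4.95 and 2.73 to 4.10) and stayed apart in iSPNs (4.43 to 6.29 and 2.08 to 4.28). This ratio was chosen after values had been seen and was not tested. Grin1 changed by -0.05 ± 0.13 in dSPNs, which turned to 0.06 without scaling, and by -0.20 ± 0.15 in iSPNs. Grin2c, Grin2d, Grin3a and Grin3b were not tested in SPNs, where each stood at 12.1 CPM or less in every mouse. Grid1, the delta receptor that binds cerebellin and neurexin, changed by 0.15 ± 0.24 in dSPNs and 0.03 ± 0.27 in iSPNs, with overlapping groups in both.

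Metabotropic receptors of group I (Grm5) couple to Gq and calcium release, and those of group II (Grm2, Grm3) and group III (Grm4, Grm7, Grm8) lower cAMP. Grm5 encodes mGluR5, the main group I receptor of SPNs, and lies on chromosome 7 from 87584168 to 88134907 on the plus strand. It was read at 1444, 1510 and 1406 CPM in WT dSPNs and at 1019, 864.2, 1120 and 1127 CPM in HttQ175/+ dSPNs. No HttQ175/+ mouse reached the lowest WT mouse. The change was -0.61 ± 0.13 (adjusted p = 0.0126, limma). The call, though not the change, was lost without WT replicate 1 (-0.61, adjusted p = 0.0602), with no filter on low genes (-0.61, adjusted p = 0.0707) and at 1000 UMIs per nucleus (-0.53, adjusted p = 0.0522, limma).

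In iSPNs the levels of Grm5 were similar, at 1479, 1504 and 1445 CPM in WT and 1175, 965.9, 1252 and 1084 CPM in HttQ175/+. The groups were apart there too, and the change of -0.51 ± 0.14 missed the threshold (adjusted p = 0.0647, limma). The difference between the 2 changes was 0.10 ± 0.22 (adjusted p = 0.959, limma). At 1000 UMIs per nucleus, 71.2% ± 0.2 of WT dSPNs and 54.7% ± 4.8 of HttQ175/+ dSPNs had a Grm5 UMI, and without thinning 86.1% and 66.8%. In oligodendrocytes, where SPN RNA was also read, the thinned shares were 27.8% ± 7.9 and 29.1% ± 5.0.

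Grm3 (mGluR3) is known mainly from astrocytes in adult striatum. It lies on chromosome 5 from 9485541 to 9725170 on the minus strand. Its dSPN level was low, at 39.4, 42.8 and 48.1 CPM in WT and 16.9, 21.7, 19.3 and 8.71 CPM in HttQ175/+, from 110 UMIs in all. The groups did not overlap and the change was -1.36 ± 0.29 (adjusted p = 0.0141, limma). The call, though not the change, was lost without WT replicate 1 (-1.42, adjusted p = 0.0521), without WT replicate 3 (-1.28, adjusted p = 0.0673) and at 1000 UMIs per nucleus (-1.24, adjusted p = 0.104, limma). At that depth 4.62% ± 0.63 of WT dSPNs and 1.90% ± 0.32 of HttQ175/+ dSPNs had a Grm3 UMI, under the 7.60% ± 4.08 and 5.08% ± 1.5 of oligodendrocytes and the 24.3% ± 3.8 and 9.58% ± 3.40 of astrocytes. Without thinning the dSPN shares were 10.95% and 3.48%, at median depths of 2776 and 2192 UMIs, and the oligodendrocyte shares 14.1% and 10.4%, at 1926 and 2009 UMIs. A level made by dSPNs and free RNA from glia cannot be told apart here. The summed level of the 6 astrocyte markers in dSPNs was 79.3 to 129.6 CPM in WT and 71.9 to 116.1 CPM in HttQ175/+, so it overlapped. Grm3 had too few UMIs in iSPNs to be tested there.

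The group III receptors did not pass. Grm4 in dSPNs was read at 54.8 to 61.2 CPM in HttQ175/+ and 60.7 to 78.9 CPM in WT, ranges that met on the CPM scale and parted after scaling, with a change of -0.40 ± 0.19 (adjusted p = 0.295, limma). In iSPNs its change was -0.69 ± 0.28 (adjusted p = 0.243, limma). Grm7, found at presynaptic release sites, changed by -0.16 ± 0.16 in dSPNs and by -0.45 ± 0.19 in iSPNs (adjusted p = 0.267, limma), where all HttQ175/+ mice were lower. Grm8 was higher in all HttQ175/+ dSPNs, at 39.5 to 66.4 CPM against 31.8 to 34.8 CPM, with a change of 0.31 ± 0.23 (adjusted p = 0.543, limma). Summed metabotropic RNA was 1841 ± 40.8 CPM in WT dSPNs and 1385 ± 156 CPM in HttQ175/+ dSPNs. In iSPNs it was 1901 ± 40.0 and 1434 ± 125 CPM, and in both types most of the sum was Grm5.

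Among the scaffolds, Shank1 was the exception: it rose in both SPN types, while 11 of the 12 scaffold genes tested in each type did not pass. Shank1 encodes a large scaffold of the deeper postsynaptic density and lies on chromosome 7 from 44310253 to 44360572 on the plus strand. In dSPNs it was read at 78.7, 37.6 and 58.6 CPM in WT and at 138.8, 116.5, 139.2 and 162.3 CPM in HttQ175/+. The lowest HttQ175/+ mouse lay above the highest WT mouse. The change was 1.14 ± 0.23 (adjusted p = 0.0126), from 86 UMIs in WT and 384 in HttQ175/+, and without HttQ175/+ replicate 4 the change was 1.06 with an adjusted p of 0.0515 (limma). At 1000 UMIs per nucleus the fitted change in dSPNs was 2.01.

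In iSPNs Shank1 was read at 33.2, 24.8 and 29.8 CPM in WT and at 111.2, 91.8, 106.9 and 109.8 CPM in HttQ175/+. The 2 groups were far apart beside their spread. The change was 1.5 ± 0.23 (adjusted p = 0.00165, limma), from 27 and 122 UMIs. The changes in iSPNs and dSPNs differed by 0.36 ± 0.23, which did not pass (adjusted p = 0.854, limma). The level of Shank1 per unit of Shank3, the main Shank of SPNs, was 0.45 ± 0.14 in WT dSPNs and 1.08 ± 0.13 in HttQ175/+ dSPNs, and 0.17 ± 0.05 and 0.83 ± 0.25 in iSPNs. Neither pair of ranges overlapped. This ratio too was chosen after values had been seen and was not tested.

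Shank1 UMIs were also seen in types not known for the gene, and their share moved with genotype. At 1000 UMIs per nucleus the share of nuclei with a Shank1 UMI went from 3.85% ± 2.61 in WT to 12.95% ± 1.85 in HttQ175/+ in dSPNs and from 2.31% ± 0.94 to 10.6% ± 1.9 in iSPNs. It went from 4.27% ± 1.77 to 9.13% ± 2.60 in oligodendrocytes and from 3.84% ± 0.51 to 9.82% ± 3.15 in astrocytes. In WT the thinned shares of the SPNs were thus near those of the glia, and a difference between types was not tested. In HttQ175/+ the dSPN mice (10.8 to 15.2%) overlapped with the oligodendrocytes (5.26 to 10.96%). Without thinning the shares were 14.7% and 26.2% in dSPNs, 7.51% and 20.3% in iSPNs, and 11.5% and 20.4% in oligodendrocytes. On the CPM scale Shank1 in oligodendrocytes was 48.2, 19.99 and 84.1 in WT and 128.9, 111.0, 31.6 and 99.96 in HttQ175/+, with overlap and a change of 0.70 ± 0.47 (adjusted p = 0.557, limma). A rise made by SPN nuclei and a rise of free Shank1 RNA cannot be told apart from these values. Interneurons, the WT nuclei with the highest levels of Shank1, gave other values: in Sst interneurons Shank1 was 345.8 ± 85.9 CPM in WT and 314.3 ± 117.2 CPM in HttQ175/+. The summed Sst interneuron markers in dSPNs were 5.24 to 52.1 CPM in WT and 6.55 to 15.5 CPM in HttQ175/+. The summed markers of Pnoc and Pvalb interneurons in dSPNs were 2.54 to 4.12 CPM and 4.53 to 5.79 CPM, all 5 detected, and those of eccentric SPNs 72.8 to 98.4 and 108.0 to 151.1 CPM, all 6 detected. Markers of cortical excitatory neurons in dSPNs went from 3.12 to 10.1 CPM in WT to 19.8 to 39.5 CPM in HttQ175/+, and those of microglia from 15.8 to 23.8 to 24.3 to 42.7 CPM, with every marker of both lists detected. In iSPNs the eccentric SPN markers summed to 35.3 to 46.4 CPM in WT and 65.8 to 107.2 CPM in HttQ175/+, all 6 detected, and the other lists of foreign markers overlapped. Their part in the Shank1 results was not tested.

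**Figure D2:**
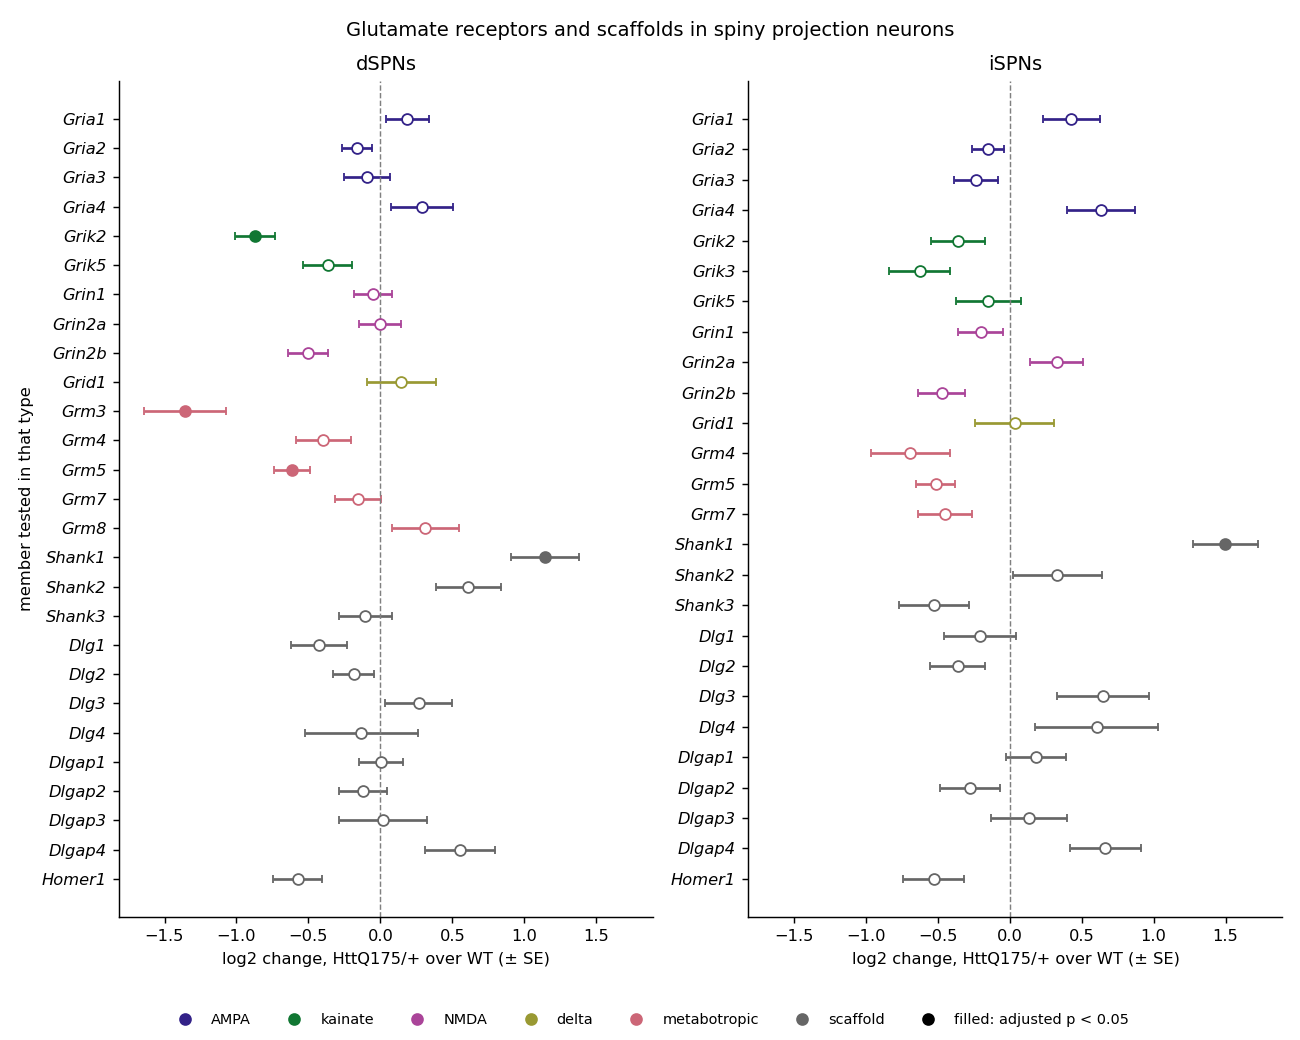
Log2 change of HttQ175/+ over WT (horizontal axis, ± SE) for the 27 members tested in dSPNs (left) and the 26 tested in iSPNs (right), coloured by class. Filled points passed an adjusted p of 0.05: Shank1 in both types, and Grik2, Grm3 and Grm5 in dSPNs, while none of the AMPA subunits passed in either type.

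The other scaffolds spread around 0. In dSPNs 6 of the 12 tested lay above 0 and 6 below, and in iSPNs 7 above and 5 below. Homer1, which links mGluR5 to Shank, was lower in dSPNs of all HttQ175/+ mice than of any WT mouse on the fitted scale, with a change of -0.57 ± 0.17 (adjusted p = 0.0825, limma). Its levels there were 485.7, 369.7 and 415.4 CPM in WT and 261.2, 267.3, 326.3 and 380.2 CPM in HttQ175/+, which touch before scaling. In iSPNs Homer1 changed by -0.53 ± 0.21 (adjusted p = 0.247, limma). The short activity-induced and long forms of Homer1 are counted together. Grm5 per unit of Homer1 was 3.48 ± 0.56 in WT dSPNs and 3.38 ± 0.40 in HttQ175/+ dSPNs.

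Shank2 was higher in all HttQ175/+ dSPNs, at 80.6 to 149.0 CPM against 51.5 to 65.2 CPM, without passing (0.61 ± 0.23, adjusted p = 0.167, limma). Shank3 changed by -0.10 ± 0.18 in dSPNs, where the sign turned without scaling, and by -0.52 ± 0.24 in iSPNs (adjusted p = 0.322, limma). Dlgap4, a SAPAP linker, changed by 0.55 ± 0.25 in dSPNs (adjusted p = 0.256) and 0.67 ± 0.25 in iSPNs (adjusted p = 0.204, limma). Dlg4, which encodes PSD-95, was the member with the smallest p for a difference between the SPN types, 0.74 ± 0.25 (adjusted p = 0.801, limma). Its WT values ranged from 39.5 to 167.8 CPM in dSPNs and from 19.0 to 135.3 CPM in iSPNs, and overlapped with the HttQ175/+ values in both. No member passed the test of a difference between dSPNs and iSPNs: 2 of 25 had an unadjusted p under 0.05, and of all 5903 genes 0.0% passed and 5.81% had an unadjusted p under 0.05.

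The other genes of the glutamate synapse were followed as a list of 49, of which 48 were in the tables. They include auxiliary subunits, kinases, adhesion proteins and genes of other kinds. In dSPNs 38 were tested, 1 rose and 9 fell, with a median change of -0.36, where 1.47% of all genes rose and 2.47% fell and their median was 0.03. The list was chosen with earlier results of these data known. Those with the smallest p were Ppp3ca, the calcineurin catalytic subunit (-0.75 ± 0.11), Camk2b, a CaMKII subunit (-0.97 ± 0.14), and Kalrn, a spine GTPase exchange factor (-0.86 ± 0.15). They were followed by Neto2, an auxiliary subunit of kainate receptors (-1.26 ± 0.23), Gsg1l, an AMPA receptor auxiliary subunit (-1.21 ± 0.22), and Cyfip2 (-0.80 ± 0.16). Neto2 was read at 122.8 to 191.1 CPM in WT dSPNs and at 54.7 to 101.1 CPM in HttQ175/+, so the auxiliary subunit and the channel subunit Grik2 both fell in dSPNs. The gene that rose was Baiap3 (named after its value was seen). In iSPNs 32 were tested, 0 rose and 4 fell: Camk2b (-0.91 ± 0.15), Ppp3ca (-0.71 ± 0.12), Neto2 (-1.32 ± 0.24) and Baiap2 (-0.71 ± 0.17). The median there was -0.37, against 0.00 over all genes, of which 0.525% rose and 1.76% fell. In astrocytes, oligodendrocytes and Sst interneurons none of the 7, 17 and 17 tested passed.

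In astrocytes 13 members were tested and none passed, as for all 1873 genes there (0.0% passed and 13.3% had an unadjusted p under 0.05, against 5 of the 13 members). Of the 13, 2 were higher and 2 were lower in every HttQ175/+ mouse (5.23% and 7.42% of all genes, 12.7% together). Grin2c encodes the NMDA subunit GluN2C and was read at 1503, 1489 and 1237 CPM in WT and 817.3, 666.9, 1129 and 791.8 CPM in HttQ175/+. The groups did not overlap, and the change of -0.76 ± 0.26 did not pass (adjusted p = 0.215, limma). Grik5 was read at 36.7, 66.6 and 85.8 CPM in WT and at 179.2, 156.8, 287.5 and 168.2 CPM in HttQ175/+, higher in every HttQ175/+ mouse, with a change of 1.35 ± 0.37 (adjusted p = 0.133, limma). Grin1 was read at 110.4, 0 and 114.4 CPM in WT and 188.2, 240.7, 139.9 and 211.6 CPM in HttQ175/+, with a change of 1.47 ± 0.51 (adjusted p = 0.231, limma) to which the WT mouse at 0 contributed. Grm3 in astrocytes was lower in every HttQ175/+ mouse, at 90.0 to 167.1 CPM against 194.2 to 250.7 CPM (-0.85 ± 0.33, adjusted p = 0.295, limma). The astrocyte markers summed to 11780 to 13770 CPM in WT and 7975 to 12392 CPM in HttQ175/+, and the SPN markers to 575 to 1682 and 775 to 2067 CPM. The 6 microglial markers summed to 29.2 to 71.0 CPM in WT astrocytes and 86.1 to 405.5 CPM in HttQ175/+ astrocytes. Their part in these values was not tested.

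**Figure D3:**
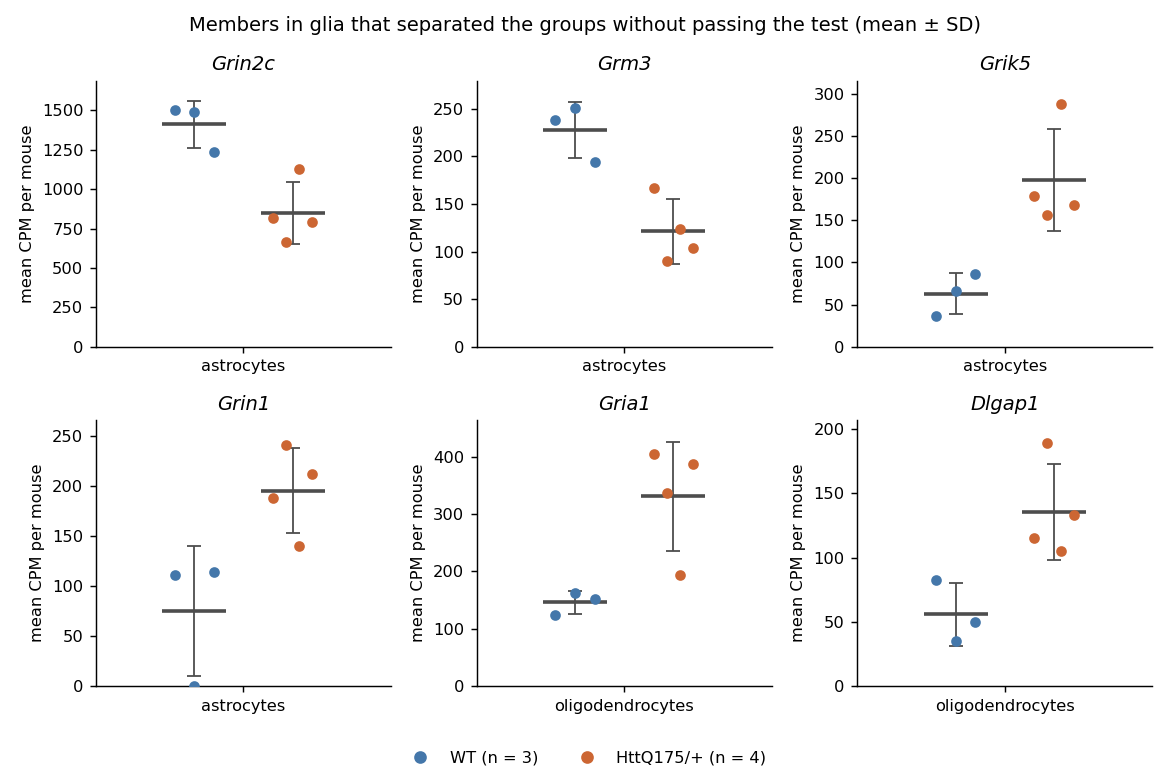
Mean CPM per mouse (vertical axes, linear and starting at 0) of Grin2c, Grm3, Grik5 and Grin1 in astrocytes and of Gria1 and Dlgap1 in oligodendrocytes, with blue points for WT (n = 3), orange points for HttQ175/+ (n = 4) and bars for mean and SD. The groups do not overlap in any panel, and no change passed the test.

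In oligodendrocytes 18 members were tested and none passed, where 0.11% of 3650 genes rose and 0.548% fell. An unadjusted p under 0.05 was found for 2 members and 13.4% of all genes. Gria1 was read at 123.9, 162.4 and 151.5 CPM in WT and 405.2, 337.0, 194.3 and 387.4 CPM in HttQ175/+, all above WT. The change was 1.04 ± 0.31 (adjusted p = 0.126), and without HttQ175/+ replicate 3 it was 1.26 and passed (adjusted p = 0.00927, limma). Replicate 3 was the HttQ175/+ mouse nearest to WT, and Gria1 passed there under no other alternative processing. Dlgap1 was read at 82.6, 34.9 and 50.3 CPM in WT and 115.2, 189.1, 105.1 and 133.0 CPM in HttQ175/+, again without overlap (1.09 ± 0.34, adjusted p = 0.152, limma). These were the 2 members higher in every HttQ175/+ mouse (6.41% of all genes), and none was lower in this way (4.74%, or 11.2% in either direction). Grin1 changed by 0.59 ± 0.29 (adjusted p = 0.379, limma), from 206.3, 216.3 and 264.5 CPM to 432.0, 415.6, 247.0 and 363.8 CPM, with overlap. SPN markers in these nuclei summed to 2628 to 3083 CPM in WT and 1408 to 2617 CPM in HttQ175/+, all 5 detected, and the oligodendrocyte's own 6 markers to 24448 to 27291 and 9466 to 20796 CPM. The 6 iSPN markers summed to 367.9 to 465.0 and 129.4 to 312.3 CPM. All 3 sums moved down while Gria1 and Dlgap1 were higher, and the part of this in the result was not tested.

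In Sst interneurons 20 members were tested and none passed, as for all 2296 genes (0.0% passed and 7.67% had an unadjusted p under 0.05, against 2 members). Gria1 was read at 41.4, 386.4 and 281.0 CPM in WT and 314.5, 279.4, 635.3 and 410.6 CPM in HttQ175/+, which overlapped (1.08 ± 0.47, adjusted p = 0.642, limma). Gria4 was read at 190.5, 105.5 and 216.5 CPM in WT and 247.5, 204.5, 337.2 and 281.2 CPM in HttQ175/+ (0.66 ± 0.29, adjusted p = 0.642, limma). Grin1 was read at 661.2, 822.5 and 666.2 CPM in WT and 627.7, 455.2, 476.1 and 503.9 CPM in HttQ175/+ (-0.41 ± 0.24, adjusted p = 0.704, limma). The Grin1 groups were apart on the CPM scale and met after scaling between mice. Grin3a, a subunit that lowers calcium entry through NMDA receptors, was the 1 member without overlap after scaling. It was lower in HttQ175/+, at 119.4 to 150.6 CPM against 157.6 to 203.6 CPM (2.92% of all genes were lower in this way, 4.62% higher and 7.53% either). The 6 astrocyte markers in these nuclei summed to 38.2 to 84.5 CPM in WT and 91.4 to 539.4 CPM in HttQ175/+, and the 6 iSPN markers to 274.6 to 427.3 and 81.0 to 202.2 CPM, both without overlap and with every marker detected. Their part in these values was not tested.

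Across the 12 types, the members fell into several patterns in WT nuclei, given here as summed UMIs over all WT nuclei of a type, scaled to CPM, and without a test. This pooled measure gives deeper nuclei, and mice with more nuclei, more weight than the means over nuclei given above. A pooled value can therefore lie outside the range of the mice. Each comparison is of 1 gene between types, since levels of different genes also depend on how well their RNA is primed. Grin2c stood at 1199 CPM in astrocytes and at 2.8 CPM in dSPNs. Grm3 stood at 182 CPM in astrocytes and 65.3 CPM in oligodendrocytes. Grik3 stood at 158 CPM in iSPNs, 129 CPM in polydendrocytes (oligodendrocyte progenitors) and 13.4 CPM in dSPNs. Grin3a was read at 294 CPM in polydendrocytes, 272 CPM in cholinergic interneurons and 170 CPM in Sst interneurons, but at 0.7 CPM in dSPNs. The WT mice had 9, 8 and 11 polydendrocyte nuclei and 4, 1 and 1 cholinergic nuclei. The Grik3 and Grin3a levels in these types thus rest on few UMIs.

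Interneurons that express Pnoc or Pvalb had the highest WT level of 8 members, some read from few UMIs. Among them, Gria4, the AMPA subunit with fast kinetics, stood at 1029 CPM there and 178 CPM in dSPNs, and Dlgap1 at 1409 and 139 CPM. Shank1 stood at 456 CPM in these cells and 321 CPM in Sst interneurons. Grik2, in contrast, was read there at 33.7 CPM, against 552 CPM in dSPNs. Grm5 had nearly the same level in dSPNs and iSPNs (both 1476 CPM) and 977 CPM in eccentric SPNs. Grin2b stood at 1718, 1672 and 1476 CPM in these 3 SPN types. In the nuclei annotated as microglia Grin2b (2045 CPM), Gria2 (3694 CPM) and Grm5 (1221 CPM) were near SPN levels, and these 13 WT nuclei also held SPN markers at 6124 to 7301 CPM per mouse beside microglial markers at 1441 to 5386 CPM. The annotation of these nuclei as microglia alone is thus not borne out by their RNA, and no member is described as microglial.

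**Figure D4:**
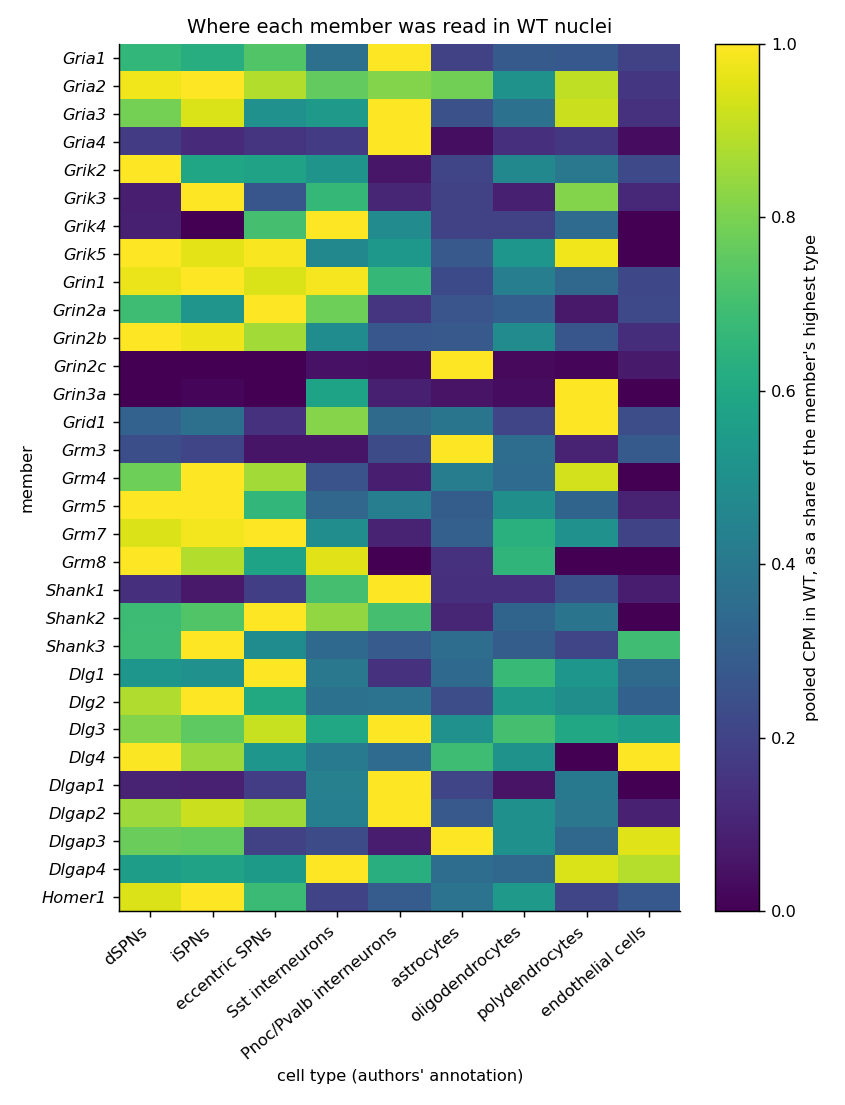
Pooled WT level of 31 members (rows, those with at least 50 WT UMIs) in the 9 cell types with at least 20 WT nuclei (columns), each as a share of that member's highest type shown (colour, 0 to 1). Grin2c and Grm3 peak in astrocytes, Grik3 in iSPNs, Grin3a in polydendrocytes, and Gria4, Dlgap1 and Shank1 in Pnoc/Pvalb interneurons.

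The members called in SPNs were also read in types too small to test. In eccentric SPNs, a minority type with its own markers, Shank1 was read at 63.9, 0 and 111.2 CPM in WT and at 110.3, 132.8, 141.9 and 163.2 CPM in HttQ175/+, from 0 to 10 UMIs per mouse. The 2 groups met between 110.3 and 111.2 CPM. Grik2 in these nuclei was read at 120.7, 265.4 and 507.9 CPM in WT and 261.9, 236.3, 204.2 and 261.8 CPM in HttQ175/+, fully overlapping. Grm5 was read at 574.8, 1211 and 1191 CPM in WT and 1097, 608.6, 846.2 and 647.7 CPM in HttQ175/+, also overlapping. In Pnoc/Pvalb interneurons Shank1 stood at 416.2, 496.1 and 498.3 CPM in WT and 384.5, 285.7, 455.5 and 538.7 CPM in HttQ175/+, with overlap. In SPNs of unknown subtype, with 11 WT and 76 HttQ175/+ nuclei, Shank1 was read at 0 CPM in each WT mouse and at 0, 129.5, 68.9 and 168.8 CPM in HttQ175/+. Grm3 was read there at 0 CPM in each WT mouse and at 0, 36.8, 60.5 and 41.1 CPM in HttQ175/+. These values rested on 0 to 2 UMIs per mouse. The WT nuclei of this type held 10958, 5694 and 4277 UMIs per mouse over all genes. That is too few to read a direction for Shank1 or Grm3. Grm3 in eccentric SPNs likewise rested on 0 to 2 UMIs per mouse and overlapped. Grik2 in SPNs of unknown subtype was read at 123.3, 235.8 and 250.5 CPM in WT and 46.0, 183.1, 186.6 and 280.6 CPM in HttQ175/+, and Grm5 at 928.1, 1974 and 1409 CPM and 651.1, 1334, 1779 and 1239 CPM, both with overlap. None of these types was tested.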

How the data were processed

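The deposited tables held, for each of 7 mice, the natural log of 1 plus a gene's UMIs scaled to 10000 per nucleus, as the authors made them. The submitters' processing notes name Cell Ranger 3.0.2, Seurat and build mm10, and per the labels' protocols the libraries were 3′ single-nucleus libraries. Cell types are the authors' deposited annotation. The sources used here do not say how they were called, how doublets were treated or whether intronic reads were counted, and no doublets were called here.

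The values were turned back into UMIs, and 100% of the 5824756 values above 0 came out whole within 0.02. For each mouse and type, CPM was the mean over nuclei of a gene's share of UMIs, scaled between mice by TMM. The test was limma 3.58.1 (lmFit, eBayes with trend, R 4.3.3) on log2(CPM + a pseudocount worth 2 UMIs), 3.67 CPM in dSPNs and 8.31 CPM in iSPNs, which understates changes of low genes. A gene needed 15 UMIs in all and the CPM worth 10 UMIs in at least 3 mice. P-values were two-sided and adjusted by Benjamini-Hochberg over all genes of a type. The test was also run on simulated data, from which nothing is concluded here. The difference between SPN types was tested on the within-mouse difference. The mouse is the replicate. Poisson intervals cover counting error only. The ± beside shares of nuclei, ratios and CPM levels is the SD over mice, and that beside log2 changes is the SE.

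The members and lists were chosen with earlier results of these data known. Every member is accounted for by class. Values per mouse are given for those that passed, in the type where they passed, for the 3 smallest p-values where none passed, and for further members chosen after their values were seen. Alternatives were other pseudocounts, no scaling, no filter, summed UMIs, nuclei thinned to 1000 UMIs and leaving out each mouse. Coordinates are from GENCODE vM21. In that annotation Grik2 contains a counted sense intronic gene (Gm26543), and Shank1 overlaps an antisense protein-coding gene (1700008O03Rik). The sources used here do not say whether the counting used strand, so reads shared with these could not be separated.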

Additional observations from a re-analysis of the deposited data

Results flagged for a closer look

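In 3 of 104 groups of 4 HttQ175/+ mice, 1 mouse stood far from the other 3, where chance gives about 5% of groups. The distance is the gap to the nearest mouse as a share of the group's range and was compared with Dixon's 95% critical value for 4 samples. For Grm8 in dSPNs, HttQ175/+ replicate 4 (66.4 CPM) was the highest with 0.898, the others standing at 39.5 to 40.8 CPM. For Dlgap4 in iSPNs, HttQ175/+ replicate 2 (105.9 CPM) was the lowest with 0.967, while the others stood at 206.3 to 212.7 CPM, above the WT mice at 91.8 to 108.7 CPM. For Gria2 in astrocytes, HttQ175/+ replicate 1 (3419 CPM) was the highest with 0.835, and the others stood at 2776 to 2847 CPM. None of these 3 members passed the test in that type.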

How the results depend on the processing

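Grik2 in dSPNs and Shank1 in iSPNs kept their direction and passed under all 13 alternatives, with changes of -0.95 to -0.76 and 1.08 to 1.88. Shank1 in dSPNs passed in 12 of 13, and Grm5 and Grm3 in dSPNs in 10 of 13 each. No called change reversed. Thinning nuclei to 1000 UMIs left 1 member that fell in dSPNs (Grik2), against 3. Leaving out each mouse, 0 to 1 members rose and 1 to 4 fell in dSPNs (1 fell without WT replicate 1, 2 without WT replicate 3, 4 without HttQ175/+ replicate 3, and 0 rose without HttQ175/+ replicate 4), and 0 to 1 rose in oligodendrocytes. No other count of members moved by over 1.5 times. Without TMM scaling the members' calls were kept, but over all genes in dSPNs 226 rose and 162 fell, against 129 and 217, and 14 of the 27 members lay above 0, against 10. The cause was not tested. Few UMIs limit the glial and interneuron types, in which 13 to 20 members could be tested. No analysis pairing WT with HttQ175/+ mice was possible because replicate numbers pair no mice.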

Other observations

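Grik1, the kainate subunit GluK1, is absent from the comparisons because it was too rare to test. It had 0 UMIs among 3358714 in WT nuclei, where the 95% exact Poisson interval ends at 1.10 CPM. In HttQ175/+ nuclei it had 24 UMIs among 6894539, or 3.48 CPM (interval 2.23 to 5.18, counting error only). Each HttQ175/+ mouse had 2 to 11 of these UMIs. In the interneurons of 3 types it had 19 UMIs among 857890 in HttQ175/+ (22.1 CPM, interval 13.3 to 34.6). It had 0 among 336428 in WT (interval up to 10.96 CPM), and no fold is given. The interneuron types were mixed differently in the groups, with 6 cholinergic nuclei in WT and 67 in HttQ175/+. In HttQ175/+ replicates 1 to 4 the cholinergic nuclei held 1, 2, 0 and 0 Grik1 UMIs. The Pnoc/Pvalb interneurons held 4, 0, 0 and 1, and the rest were in Sst interneurons. The part of the mixture in these counts was not tested.

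Gene length was looked at after the values had been seen. Of the 27 members tested in dSPNs, 16 span at least 200 kb, and the 3 that fell are among these, while Shank1 is shorter. A length was found for 8532 of the 8796 genes tested in dSPNs. Among these, 47 of 630 long genes and 165 of 7902 short genes fell. The median change was -0.11 in the long members and -0.10 in the short ones. Over the genes with a length it was -0.06 in the long and 0.04 in the short in dSPNs, and in iSPNs -0.04 and 0.00. Without scaling between mice the dSPN medians turned to 0.01 and 0.01 in the members. They were 0.04 and 0.14 over the genes with a length. These are descriptions with no test.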
